A study of Mus musculus with 2 samples.

Results

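The 10 genes described in this report carry peptide antigens to the cell surface, and they were taken by symbol out of the 32285 genes of the count tables. The class I set was H2-K1 and H2-D1, which code for heavy chains, B2m, which codes for their light chain beta-2 microglobulin, and Tap1 and Tap2, the subunits of the peptide transporter. The class II set was H2-Aa, H2-Ab1 and H2-Eb1, which code for class II chains, Cd74, the invariant chain that guards the peptide groove, and Ciita, the coactivator that switches class II genes on. Single-nucleus RNA sequencing on a droplet platform was run on frozen kidney of male T1+/+ mice, the genotype as the labels write it, operated on at 11 weeks of age. In the nephrectomy group the right kidney was removed and, a week later, both poles of the left one were ligated (5/6 nephrectomy), with tissue collected 4 weeks after surgery. The sham group had its flanks opened and closed and was sampled at the same time. Sex, genotype and age are given with the nephrectomy, and the sham mice are not described apart. Each group consisted of 1 library, so no test between the groups was possible, and all intervals are 95% intervals that cover counting error only. How many animals went into a library, and which part of each kidney was taken, is not stated in the labels.

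Class I molecules sit on nearly all nucleated cells and show peptides cut in the cytosol to CD8 T cells. The transporter moves those peptides into the endoplasmic reticulum, where they are loaded on a heavy chain paired with beta-2 microglobulin. Class II molecules show peptides from engulfed material to CD4 T cells and are made mainly by dendritic cells, macrophages and B cells, while injured kidney tubule cells can acquire them under interferon gamma. Interferon gamma raises both sets, through Nlrc5 for class I and through Ciita for class II.

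The upstream stretches below are shown because H2-K1 and H2-D1 went different ways in the counts, and because the boxes read by class I and class II regulators lie there. RefSeq promoter entries (build GRCm38.p6) were found for 6 of the 10 genes, and the stretches end at the annotated gene start or before it. Capitals mark exact matches, on either strand, to 4 motifs. These are the Y box ATTGG, bound by NF-Y, the X2 box TGACGT of class II promoters, the core of the interferon-stimulated response element (GAAA, any 2 bases, GAAA), and the NF-kappaB site of class I promoters (GGGGA and TCCCC joined by a T). Of the 32851 promoter entries, 33.8% hold the Y box in the 250 bases before the start, 6.47% the X2 box, 2.98% the interferon core and 10 entries the class I NF-kappaB site. The Y box was matched in all 6 genes, the X2 box in H2-Aa alone, the NF-kappaB site in H2-K1 and H2-D1 and the interferon core in B2m alone. Boxes and elements spelled with other letters stay in lower case, so a missing match does not mean that a gene lacks the element. The X2 box reads almost the same on both strands, so its 2 matches in H2-Aa overlap.
H2-K1 (chr17:34000348-34000597, minus strand): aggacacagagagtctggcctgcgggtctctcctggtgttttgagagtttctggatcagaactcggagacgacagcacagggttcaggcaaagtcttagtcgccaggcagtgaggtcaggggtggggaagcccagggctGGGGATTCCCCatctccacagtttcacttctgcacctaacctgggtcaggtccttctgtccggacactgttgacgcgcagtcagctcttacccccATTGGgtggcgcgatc
B2m (chr2:122147437-122147685, plus strand): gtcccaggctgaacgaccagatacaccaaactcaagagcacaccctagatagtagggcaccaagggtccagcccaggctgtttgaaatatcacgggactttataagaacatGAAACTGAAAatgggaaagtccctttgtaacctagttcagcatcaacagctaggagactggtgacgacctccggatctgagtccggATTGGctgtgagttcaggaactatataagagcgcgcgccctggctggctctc
H2-Aa (chr17:34287824-34288073, minus strand): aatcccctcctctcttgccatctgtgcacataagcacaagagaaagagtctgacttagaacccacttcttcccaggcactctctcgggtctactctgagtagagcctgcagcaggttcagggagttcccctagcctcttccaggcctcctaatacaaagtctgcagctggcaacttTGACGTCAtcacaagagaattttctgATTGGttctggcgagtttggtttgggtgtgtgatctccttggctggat
H2-Eb1 (chr17:34305617-34305866, plus strand): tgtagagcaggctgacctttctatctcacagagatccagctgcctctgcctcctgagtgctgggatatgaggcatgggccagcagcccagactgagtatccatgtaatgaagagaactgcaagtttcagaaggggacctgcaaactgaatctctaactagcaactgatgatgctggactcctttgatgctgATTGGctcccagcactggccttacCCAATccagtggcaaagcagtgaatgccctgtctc
The H2-D1 entry lies inside the GENCODE gene, so only the 30 bases around its NF-kappaB site are given, beside the same stretch of H2-K1.
H2-K1 site (chr17:34000438-34000467, minus strand): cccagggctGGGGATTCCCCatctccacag
H2-D1 site (chr17:35262914-35262943, plus strand): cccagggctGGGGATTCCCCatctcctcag
The H2-K1 and H2-D1 stretches are identical at 29 of 30 bases. A match describes these letters and is not a bound site.

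Transcripts were counted as UMIs (unique molecular identifiers, 1 per captured molecule). There were 28284727 UMIs on 3299 barcodes in the nephrectomy library (median 6844) and 21365116 UMIs on 3084 barcodes in the sham library (median 5140). They shared 2 cell barcodes. After filtering, 3097 nephrectomy and 2891 sham nuclei were clustered together, and clusters were named from marker genes as nuclei "like" a cell type. Levels are counts per 1000000 UMIs of the class (CPM). Proximal tubule-like nuclei numbered 1336 in the nephrectomy library and 1052 in the sham library, blood endothelial-like nuclei 309 and 280, smooth muscle or mesangial-like nuclei 129 and 95, and fibroblast-like nuclei 70 and 64. Mononuclear phagocyte-like nuclei numbered 20 and 17, the sham count being below the minimum of 20 per library, and their values are given as a description. Clusters that stayed unnamed held 158 nephrectomy and 512 sham nuclei, of which a low-depth cluster that scored nearest to proximal tubule held 55 and 428.

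In GENCODE M21 (GRCm38) most of these genes sit in the H2 complex on chromosome 17. They are H2-K1 (33996017 to 34000347, minus strand), Tap1 (34187553 to 34197225, plus strand), Tap2 (34203527 to 34216321, plus strand), H2-Ab1 (34257689 to 34269419, plus strand), H2-Aa (34282744 to 34287823, minus strand), H2-Eb1 (34305867 to 34316674, plus strand) and H2-D1 (35262730 to 35267499, plus strand). B2m lies on chromosome 2 at 122147686 to 122153083, Ciita on chromosome 16 at 10480059 to 10528418 and Cd74 on chromosome 18 at 60803848 to 60812652, all on the plus strand. Genes on the opposite strand overlap B2m (Patl2), Tap1 (Psmb9), Tap2, H2-Eb1 and Ciita (Dexi), and whether the counting used strand is not stated in the sources used here.

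Class I transcripts were found in every class, with blood endothelial-like and phagocyte-like nuclei far above the tubule. Endothelial-like nuclei stood at 1133 CPM (1085 to 1184) in the nephrectomy library and 1292 CPM (1227 to 1359) in the sham library. They held 38.2% of all class I UMIs with 6.81% of all UMIs in the nephrectomy library, and 39.3% with 5.86% in the sham library. Phagocyte-like nuclei, at 915 CPM (686 to 1197) in the nephrectomy and 1300 CPM (1040 to 1605) in the sham library, had intervals that overlapped those of endothelial-like nuclei in both. The order that follows is that of the nephrectomy library, and it leaves out urothelial-like and thin limb-like nuclei, with 14 each. Lymphocyte-like (623 CPM, 521 to 739), smooth muscle or mesangial-like (547 CPM, 471 to 631), injured proximal tubule-like (537 CPM, 457 to 626) and fibroblast-like nuclei (467 CPM, 404 to 538) followed, each with an interval that overlapped its neighbour's. The lymphocyte-like value is that of a mixed class. Of its 210229 UMIs, 146652 lay in a single cluster that carried proximal tubule markers at 14551 CPM. Class I stood at 402 CPM in that cluster and at 1000 and 1794 CPM in the other lymphocyte-like clusters. Parietal epithelial-like (269.6 CPM, 198 to 359) and podocyte-like nuclei (244 CPM, 206 to 287) came next, with overlapping intervals. Principal-like, intercalated-like and thick ascending limb-like nuclei lay at 149, 139 and 131 CPM with overlapping intervals. Lowest among the classes compared were the proximal tubule-like class at 94.3 CPM (89.2 to 99.5) and the distal class, nuclei like distal convoluted or connecting tubule, at 84.8 CPM (75.4 to 95.1). Over the whole library class I stood at 202 CPM in the nephrectomy and 193 CPM in the sham library, a ratio of 1.05 (1.01 to 1.09), which went below 1 when nuclei were thinned to equal depth (0.983).

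**Figure D1:**
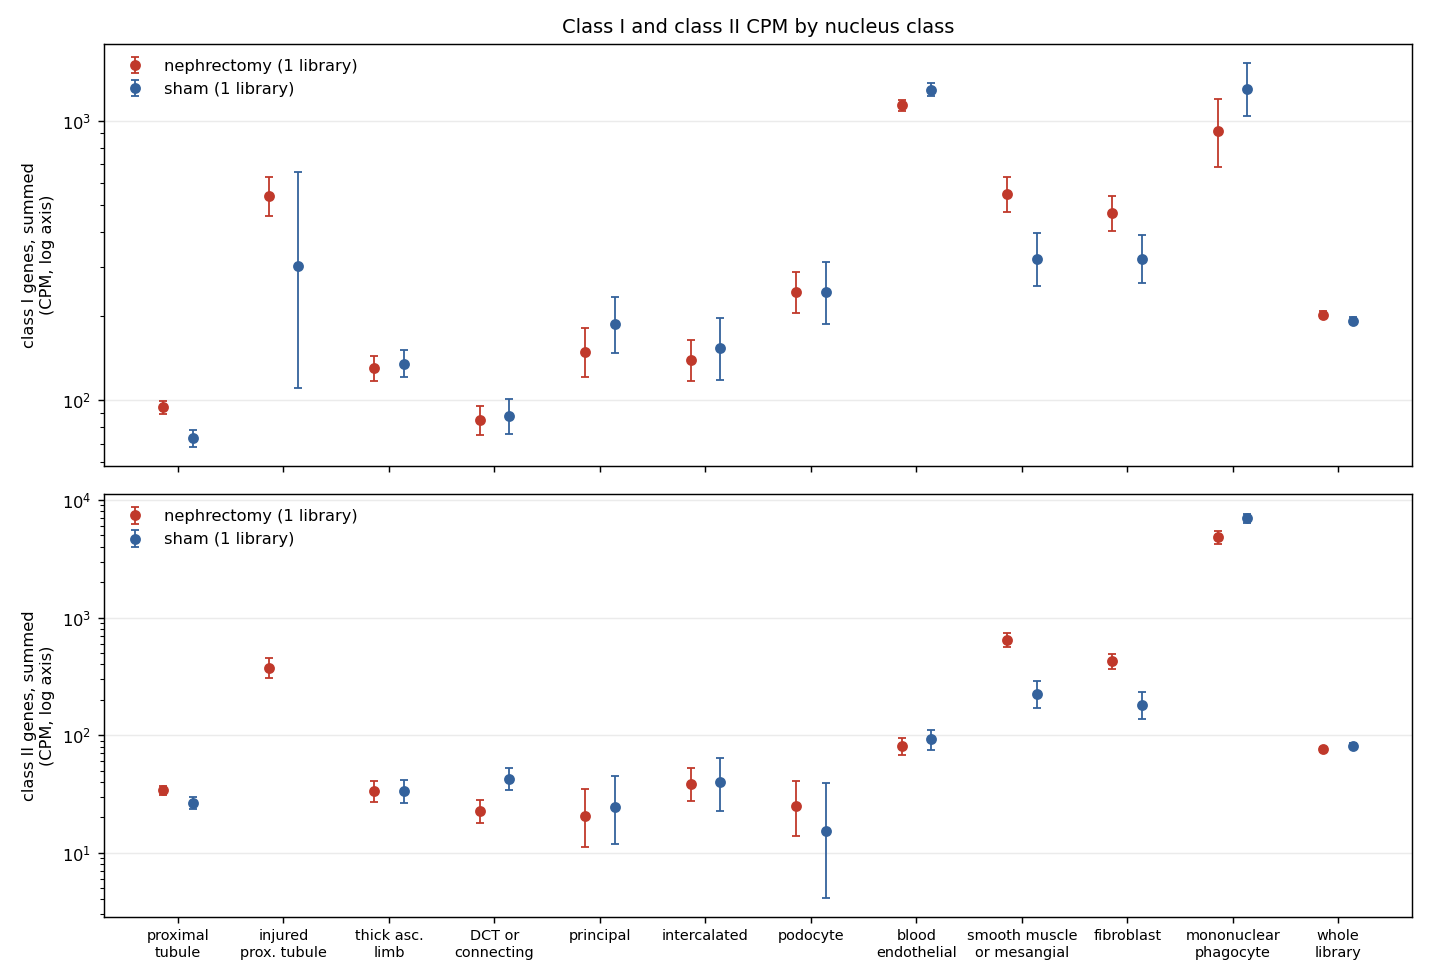
Summed class I (top) and class II (bottom) levels in CPM on log axes, by nucleus class, nephrectomy left of sham. Points are 1 library each and bars are 95% counting intervals; class I is highest in blood endothelial-like (1133 and 1292 CPM) and phagocyte-like nuclei (915 and 1300 CPM) and class II in phagocyte-like nuclei (4818 and 6998 CPM), and a group with 0 UMIs has no point.

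The 5 class I genes did not move together over the whole library. B2m had 1854 UMIs and 70.6 CPM in the nephrectomy library against 1117 UMIs and 56.9 CPM in the sham library, a ratio of 1.24 (1.15 to 1.34). H2-D1 had 1157 UMIs and 44.1 CPM against 1117 UMIs and 56.9 CPM, a ratio of 0.774 (0.712 to 0.841). H2-K1 had 1882 UMIs and 71.7 CPM against 1297 UMIs and 66.1 CPM, a ratio of 1.08 (1.01 to 1.17). The heavy chain genes thus lay on opposite sides of 1 while their shared light chain was higher. Of the transporter subunits, Tap1 had 127 against 65 UMIs, a ratio of 1.46 (1.08 to 2.0), and Tap2 291 against 187 UMIs, a ratio of 1.16 (0.965 to 1.41). None of the 5 reached 1.5-fold either way, where 9.18% of the 17476 genes with at least 20 UMIs were at least 1.5 times higher and 10.7% at least 1.5 times lower in the nephrectomy library. The median log2 ratio was 0.22 over the class I genes and 0.02 over all genes tested.

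Proximal tubule-like nuclei, which take back most of the filtered load, had more class I RNA per UMI in the nephrectomy library. The class I sum was 94.3 CPM in nephrectomy and 73.0 CPM in sham nuclei, a ratio of 1.29 (1.18 to 1.41). H2-K1 had 469 UMIs in 347 of the 1336 nephrectomy nuclei against 245 UMIs in 202 of the 1052 sham nuclei, a ratio of 1.502 (1.28 to 1.76). B2m had 529 against 278 UMIs, at 38.2 and 25.6 CPM, a ratio of 1.49 (1.29 to 1.73). H2-D1 had 244 against 222 UMIs, a ratio of 0.863 (0.716 to 1.04), which turned above 1 with equal weight per nucleus (1.22), over shared clusters with equal weight (1.21) and with free RNA subtracted (1.04). Tap1 had 16 against 7 UMIs, too few to place its ratio of 1.79 (0.698 to 5.15), and Tap2 had 47 against 41, a ratio of 0.900 (0.579 to 1.402). H2-K1 and Tap1 passed 1.5-fold, and Tap1 went below 1 after thinning (0.811). In this class 11.2% of the 14643 genes tested were at least 1.5 times higher and 11% at least 1.5 times lower in the nephrectomy library.

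The direction of the class I sum held in 3 of the 4 proximal tubule-like clusters with at least 20 nuclei of each library. Cluster 0 stood at 87.2 CPM in nephrectomy and 59.9 CPM in sham nuclei, cluster 1 at 290.0 and 173 CPM and cluster 2 at 84.8 and 60.3 CPM, while cluster 4 stood at 64.1 and 65.1 CPM. Clusters 5 and 13 were nearly all sham, with 4 nephrectomy and 335 sham nuclei and with 12 and 177, so a cluster there may be a library and not a kind of cell. With equal weight per shared cluster the ratio was 1.47. Cluster 1, with the highest levels, weighs most in that mean. It was shallow, with median depths of 1673 and 1580 UMIs against 11617 and 10780 UMIs in cluster 0. When the low-depth unnamed clusters nearest to proximal tubule were added, a choice made after the data were seen, the pooled class I ratio was 1.04.

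In blood endothelial-like nuclei, which line the vessels, the class I sum was lower in the nephrectomy library, and the heavy chain genes carried this. The free RNA estimate of this class was 73.0% in the nephrectomy and 55.4% in the sham library. It counts all proximal tubule marker RNA as free. Cluster 12 of the class, described below, carried those markers above the whole-library level, so the estimate is an upper value and not a measured share. With that estimate subtracted the class I ratio was 0.83. H2-D1 stood at 279.6 CPM in nephrectomy and 407 CPM in sham nuclei, with 500 and 468 UMIs, a ratio of 0.688 (0.605 to 0.782). H2-K1 stood at 338 and 388 CPM, a ratio of 0.872 (0.770 to 0.987), which was 1.05 with equal weight per nucleus and 1.09 over shared clusters. B2m was nearly level (444 and 434 CPM, ratio 1.02, 0.913 to 1.15), and Tap2 at 49.2 and 47.8 CPM, a ratio of 1.03. Tap1 had 41 against 18 UMIs, a ratio of 1.47 (0.824 to 2.71). None of the 5 reached 1.5-fold, where 13.3% of the 11076 genes tested were at least 1.5 times higher and 12.4% lower.

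The 3 endothelial-like clusters did not share a direction. Cluster 8 stood at 1993 CPM of class I in 172 nephrectomy nuclei and 1945 CPM in 141 sham nuclei, a ratio of 1.02 (0.944 to 1.11). Cluster 24 stood at 1207 and 876 CPM, a ratio of 1.38 (1.04 to 1.83). Cluster 12 stood at 502 CPM in 102 nephrectomy nuclei and 711 CPM in 112 sham nuclei, a ratio of 0.706 (0.616 to 0.810). Cluster 12 also carried RNA of the 12 proximal tubule marker genes at 10909 CPM in nephrectomy and 10312 CPM in sham nuclei, close to the 9038 and 9818 CPM of the whole libraries, whereas cluster 8 carried 1265 and 1272 CPM. The lower class I sum therefore lay in the cluster with tubule RNA, whose part in the result was not tested. With equal weight per cluster the class I ratio was 1.05, and with equal weight per nucleus 1.02.

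**Figure D2:**
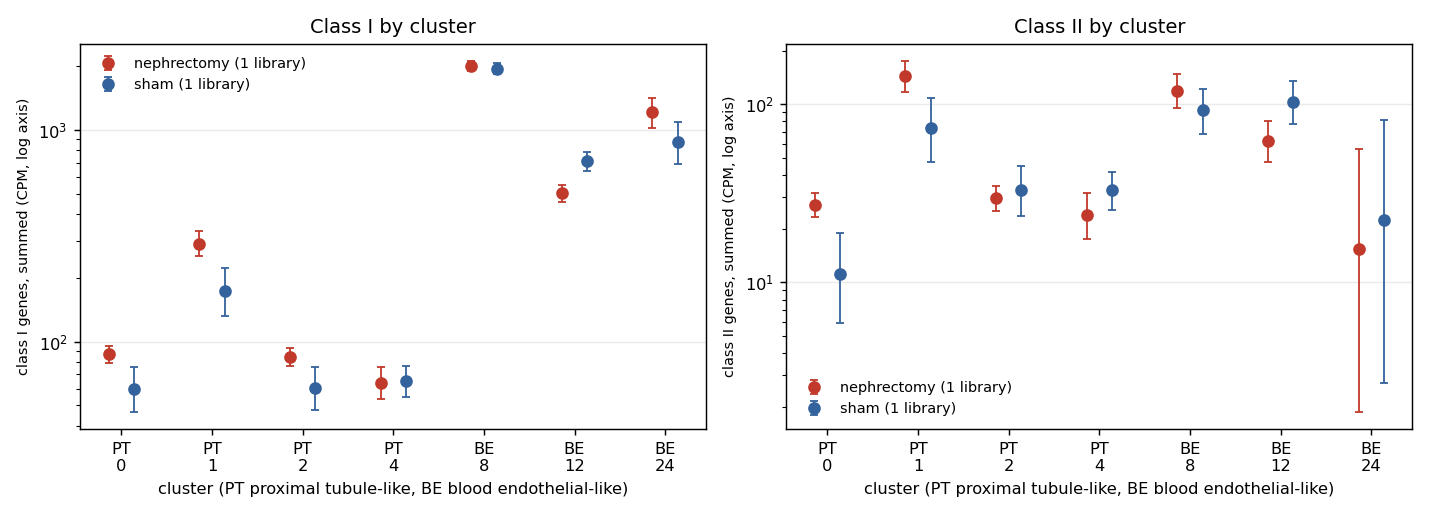
Class I (left) and class II (right) levels in CPM on log axes in each proximal tubule-like (PT) and blood endothelial-like (BE) cluster with at least 20 nuclei of each library, nephrectomy left of sham, with 95% counting intervals. Class I was higher in nephrectomy nuclei in PT clusters 0, 1 and 2 and lower in BE cluster 12, and class II went both ways among PT clusters.

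The balance of H2-D1 against H2-K1 differed between the libraries, in a ratio that depth and class totals cancel out of. The nephrectomy library had 0.615 H2-D1 UMIs per H2-K1 UMI (0.571 to 0.662) and the sham library 0.861 (0.794 to 0.934). Proximal tubule-like nuclei had 0.520 (0.444 to 0.609) in the nephrectomy and 0.906 (0.752 to 1.09) in the sham library. Endothelial-like nuclei had 0.828 (0.734 to 0.934) and 1.05 (0.920 to 1.197), and thick ascending limb-like nuclei 0.355 (0.263 to 0.474) and 0.488 (0.369 to 0.640). The distal class had 0.403 and 0.636, principal-like nuclei 0.449 and 0.839, intercalated-like nuclei 0.477 and 0.783 and podocyte-like nuclei 0.759 and 1.08. Fibroblast-like nuclei (0.810 and 0.667) and lymphocyte-like nuclei (0.686 and 0.630) went the other way. Most UMIs of the lymphocyte-like class lay in a cluster that also carried proximal tubule markers. Apart from the whole library and the proximal tubule-like class, the intervals of the libraries overlapped. Of the 50-base windows of their transcripts, 9.63% for H2-K1 and 10.9% for H2-D1 also occur in other H2 transcripts, so the counting could have split or dropped some of their reads. Whether the mice of both libraries carried the same H2 haplotype is not stated in the labels.

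**Figure D3:**
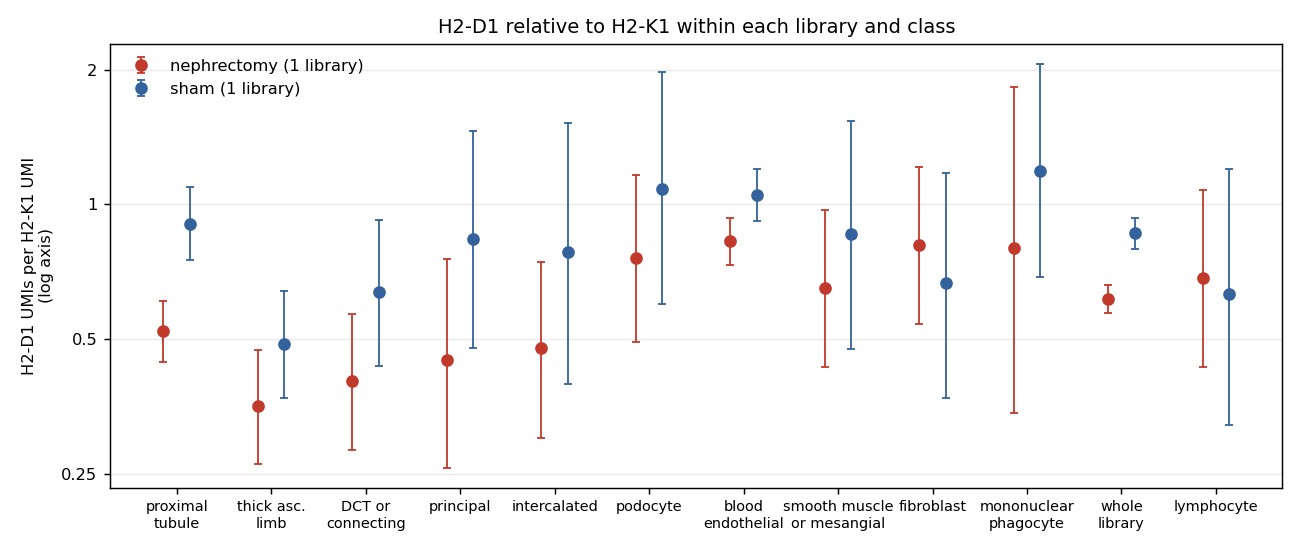
H2-D1 UMIs per H2-K1 UMI on a log axis in each class with at least 10 UMIs of both genes in both libraries, nephrectomy left of sham, with 95% counting intervals. The nephrectomy library lies lower in the whole library (0.615 against 0.861) and in each class shown except fibroblast-like and lymphocyte-like nuclei.

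Class II transcripts were concentrated in the few leukocytes. The level in phagocyte-like nuclei was 4818 CPM (4269 to 5417) in the nephrectomy library against 6998 CPM (6375 to 7666) in the sham library, more than any other named class. The 5 leukocyte clusters together, with 48 nephrectomy and 46 sham nuclei, held 25.7% of class II UMIs in the nephrectomy library and 38.7% in the sham library, with 1.04% and 1.03% of all UMIs. Over the whole library the class II sum was 75.8 CPM in the nephrectomy and 81.6 CPM in the sham library, a ratio of 0.929 (0.870 to 0.993). Without the leukocyte clusters it was 56.9 and 50.6 CPM, a ratio of 1.13 (1.04 to 1.22), on the other side of 1. The whole-library value is therefore a sum of a lower pooled level in the leukocyte clusters and a higher one in the rest. Leukocyte nuclei made up 1.55% of nephrectomy and 1.59% of sham nuclei. The pooled class II level within them was 1882 CPM in nephrectomy and 3068 CPM in sham nuclei, a ratio of 0.614 (0.545 to 0.691). That ratio compares unlike mixes of clusters. An unnamed cluster among them held 1 nephrectomy and 18 sham nuclei, and a lymphocyte-like cluster 14 and 2. Lymphocyte-like nuclei stood higher in the nephrectomy library (1070 against 335 CPM), and the phagocyte-like ratio was 0.992 after thinning.

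Ciita was the only class II gene at or beyond 1.5-fold in the whole library. Of the 17476 genes tested there, 9.18% were at least 1.5 times higher and 10.7% at least 1.5 times lower. Ciita had 126 UMIs in 78 of 3097 nephrectomy nuclei against 56 UMIs in 39 of 2891 sham nuclei, a ratio of 1.68 (1.22 to 2.35). Cd74 had 846 against 729 UMIs, at 32.2 and 37.1 CPM, a ratio of 0.867 (0.785 to 0.959). The chain genes H2-Aa (404 against 337 UMIs, ratio 0.896), H2-Ab1 (310 against 214, ratio 1.08) and H2-Eb1 (305 against 265, ratio 0.860) had intervals that included 1. The median log2 ratio of the 5 was -0.16. Of the other 4 class II transcripts, nuclei with a Ciita UMI held 419 CPM and nuclei without one 56.5 CPM in the nephrectomy library, against 826 and 63.0 CPM in the sham library. Most of those UMIs lay in leukocyte clusters, 284 of 442 in nephrectomy and 310 of 333 in sham nuclei. Outside those clusters the levels were 165 and 49.8 CPM in the nephrectomy library and 66.3 and 48.5 CPM in the sham library. Of the 158 UMIs behind the 165 CPM, 49 lay in 4 injured proximal tubule-like nuclei and 32 in 1 fibroblast-like nucleus. The 66.3 CPM rests on 23 UMIs. In proximal tubule-like nuclei the levels were 41.8 and 30.9 CPM in the nephrectomy library, and 21.9 and 25.1 CPM in the sham library.

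In mononuclear phagocyte-like nuclei Ciita and the other class II genes went opposite ways. Ciita had 28 UMIs in 11 of 20 nephrectomy nuclei against 15 UMIs in 7 of 17 sham nuclei, a ratio of 2.13 (1.10 to 4.30). One nephrectomy nucleus held 11 of those 28 UMIs, and no sham nucleus held more than 4. Cd74 was at 2038 CPM in nephrectomy and 3280 CPM in sham nuclei, a ratio of 0.621 (0.492 to 0.781). H2-Ab1 (34 against 64 UMIs, ratio 0.607, 0.388 to 0.934) and H2-Eb1 (38 against 71 UMIs, ratio 0.611, 0.401 to 0.919) were lower too, and H2-Aa (61 against 96 UMIs) had a ratio of 0.726 (0.518 to 1.01). In this class 21.5% of the 1473 genes tested were at least 1.5 times higher and 20.5% at least 1.5 times lower. The leukocyte markers of this class were also lower in sum, at 5646 CPM with 21 of 38 detected in nephrectomy and 6968 CPM with 24 of 38 in sham nuclei, and Lyz2, the lysozyme gene of macrophages, had 39 against 95 UMIs. Its median depth was 2068 UMIs in nephrectomy and 3321 UMIs in sham nuclei, and after thinning the class II ratio was 0.992. Class I there had a ratio of 0.704 (0.490 to 1.003), led by H2-D1 with 12 against 32 UMIs. H2-K1 had 15 against 27, B2m 14 against 17, Tap1 7 against 7 and Tap2 5 against 3. Lymphocyte-like nuclei, 27 and 11 in number, stood at 1070 and 335 CPM of class II, and 166 of the 225 nephrectomy UMIs lay in a single cluster of 14 nephrectomy and 2 sham nuclei. One nucleus held 62 of the 166, and the cluster carried the 12 proximal tubule markers at 14551 CPM in nephrectomy and 16799 CPM in sham nuclei, whose part in the result was not tested.

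**Figure D4:**
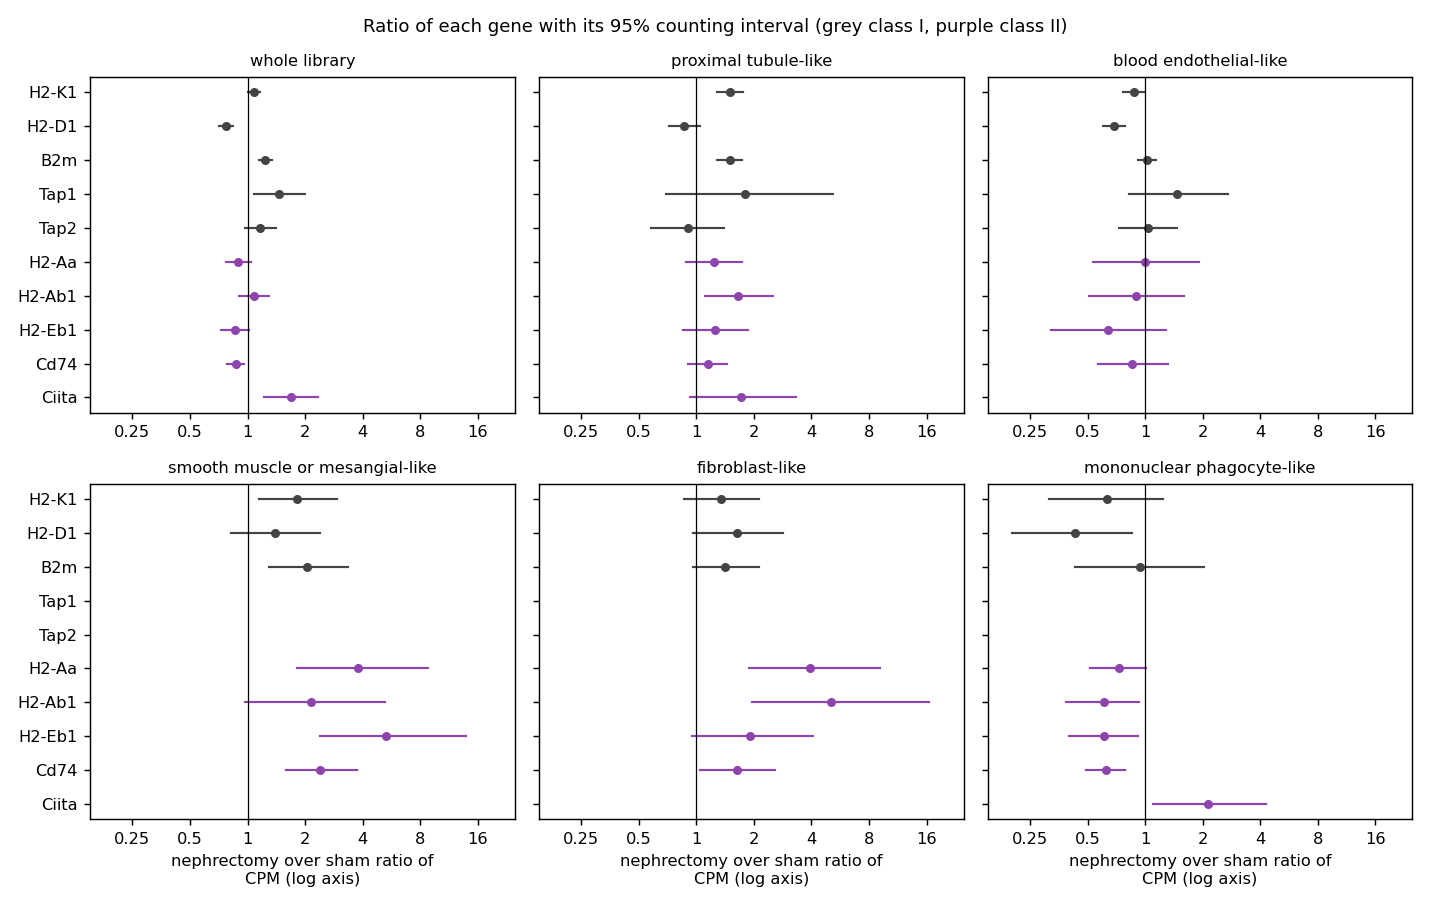
Nephrectomy over sham ratio of CPM (log axis) of each gene with its 95% counting interval, in the whole library and 5 classes. Genes with under 20 UMIs over both libraries are left out; H2-D1 lies left of H2-K1 in each panel except the fibroblast-like one, and Ciita lies right of the other class II genes in the phagocyte-like panel.

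The highest class II ratios among the compared classes were found in contractile and interstitial nuclei. Smooth muscle or mesangial-like nuclei stood at 644 CPM (562 to 736) in the nephrectomy and 226 CPM (172 to 291) in the sham library, a ratio of 2.86 (2.13 to 3.87). H2-Eb1 had 48 against 7 UMIs, a ratio of 5.30 (2.38 to 13.9), H2-Aa 44 against 9, a ratio of 3.78 (1.82 to 8.80), and Cd74 96 against 31, a ratio of 2.39 (1.58 to 3.71). H2-Ab1 had 25 against 9 UMIs, a ratio of 2.15 (0.969 to 5.23). Ciita (5 against 3 UMIs), Tap1 (4 against 4) and Tap2 (3 against 2) were too few to place. All 4 class II genes with at least 20 UMIs were thus at least 1.5 times higher, where 16.8% of the 6123 genes tested were. The class I sum was 547 CPM in nephrectomy against 321 CPM in sham nuclei, 1.70-fold (1.31 to 2.23), with B2m at 69 against 26 UMIs, H2-K1 at 66 against 28 and H2-D1 at 43 against 24. This class was shallow, with medians of 1261 UMIs in nephrectomy and 1426 UMIs in sham nuclei. In it the free RNA estimate, which counts all proximal tubule marker RNA as free, was 52.2% in the nephrectomy and 46.5% in the sham library. With doublets kept, its class I ratio was 0.907 and its class II ratio 1.29. In that setting all nuclei were clustered and named again, and the class held 86 nephrectomy and 82 sham nuclei.

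Fibroblast-like nuclei, the makers of interstitial matrix, showed the same order of groups, at 426 CPM (366 to 494) of class II in the nephrectomy and 179.5 CPM (136 to 233) in the sham library, a ratio of 2.37 (1.75 to 3.26). H2-Ab1 had 33 against 5 UMIs, a ratio of 5.05 (1.96 to 16.6), and H2-Aa 46 against 9, a ratio of 3.91 (1.89 to 9.08). Cd74 had 66 against 31 UMIs, a ratio of 1.63 (1.05 to 2.58), and H2-Eb1 30 against 12, a ratio of 1.91 (0.950 to 4.10). All 4 were at least 1.5 times higher, where 14.8% of the 6299 genes tested were. The UMIs were unevenly spread, since 6 nephrectomy nuclei with at least 10 class II UMIs held 145 of the 177, and 2 sham nuclei held 31 of the 57. The class I sum was 467 CPM in nephrectomy against 321 CPM in sham nuclei, 1.45-fold (1.14 to 1.87), with B2m at 76 against 41 UMIs, H2-K1 at 58 against 33, H2-D1 at 47 against 22, Tap2 at 8 against 5 and Tap1 at 5 against 1. Ciita had 2 UMIs in nephrectomy and none in sham nuclei.

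Lyz2 moved with class II in both of these classes, while other leukocyte markers went both ways in fibroblast-like nuclei. The summed list, which does not measure leukocytes alone, stayed near level. In smooth muscle or mesangial-like nuclei Lyz2 had 58 UMIs in nephrectomy against 3 in sham nuclei, C1qa, a complement gene of macrophages, 10 against 2, and Ptprc, the pan-leukocyte CD45 gene, 7 against 0. In fibroblast-like nuclei Lyz2 had 17 against 2 UMIs and C1qa 9 against 6, while Ptprc had 6 against 10, and Cd68 and Itgam were at 0 in nephrectomy nuclei. Of the 38 leukocyte markers, 19 were detected in nephrectomy and 11 in sham smooth muscle or mesangial-like nuclei, and 22 and 18 in fibroblast-like nuclei. Their summed level was 2538 and 2505 CPM in the first class and 2241 and 2062 CPM in the second. In podocyte-like nuclei, with no Ptprc UMI in either library, the list still stood at 653 CPM in nephrectomy and 717 CPM in sham nuclei. Over the whole nephrectomy library it stood at 378 CPM, and at 341 CPM without the leukocyte clusters. Nuclei with a UMI of Ptprc, Lyz2, C1qa or C1qb numbered 42 in nephrectomy and 5 in sham smooth muscle or mesangial-like nuclei, and held 171 of 218 and 14 of 59 class II UMIs. In the nuclei without such a UMI, class II stood at 237 CPM (174 to 315) in nephrectomy and 184 CPM (134 to 246) in sham nuclei, a ratio of 1.29. In fibroblast-like nuclei without such a UMI it stood at 83.4 CPM (54.0 to 123) against 74.0 CPM (43.9 to 117), 1.13-fold. In both classes the intervals of the libraries thus overlapped outside nuclei with leukocyte UMIs.

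**Figure D5:**
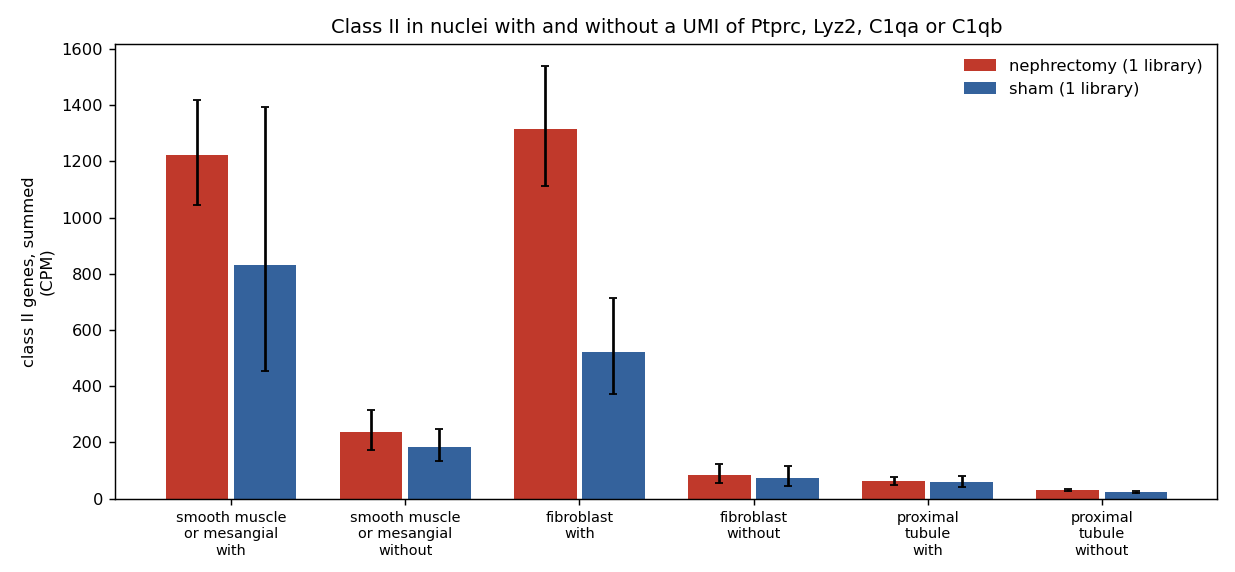
Class II levels in CPM in nuclei with and without a UMI of Ptprc, Lyz2, C1qa or C1qb, nephrectomy left of sham, with 95% counting intervals. In smooth muscle or mesangial-like and fibroblast-like nuclei without such a UMI the libraries stand at 237 against 184 CPM and at 83.4 against 74.0 CPM.

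Class II RNA in proximal tubule-like nuclei lay within the range of the other tubule classes compared, which was 20.6 to 38.6 CPM in the nephrectomy and 24.6 to 42.4 CPM in the sham library. It stood at 33.9 CPM (30.9 to 37.1) in the nephrectomy and 26.5 CPM (23.5 to 29.8) in the sham library, a ratio of 1.28 (1.10 to 1.48). Thick ascending limb-like nuclei, used as background, stood at 33.2 CPM (26.8 to 40.7) and 33.4 CPM (26.5 to 41.6), with the distal class lower at 22.6 CPM (17.9 to 28.2) in the nephrectomy and higher at 42.4 CPM (34.1 to 52.1) in the sham library. Leukocyte markers were also detected in proximal tubule-like nuclei, with Ptprc at 20 against 7 UMIs, Lyz2 at 33 against 18 and C1qa at 20 against 9, and the whole list, 32 and 26 of 38 markers detected, at 60.3 and 62.0 CPM. In nuclei without a UMI of Ptprc, Lyz2, C1qa or C1qb class II stood at 31.1 CPM (28.1 to 34.3) in nephrectomy and 24.7 CPM (21.7 to 27.9) in sham nuclei. Nuclei with a Cd74 UMI made up 11.5% of nephrectomy and 10.6% of sham proximal tubule-like nuclei, at median depths of 9308 and 9020 UMIs, and 10.1% and 7.49% of thick ascending limb-like nuclei, at 6922 and 5960 UMIs. After thinning, Cd74 was in 1.87% and 1.205% of proximal tubule-like nuclei and in 0.875% and 1.68% of thick ascending limb-like nuclei. H2-Ab1 had 78 against 37 UMIs, a ratio of 1.65 (1.11 to 2.52), and Ciita 35 against 16, a ratio of 1.72 (0.925 to 3.32), while H2-Aa (1.24), H2-Eb1 (1.26) and Cd74 (1.14) lay under 1.5-fold. Of all genes tested in this class, 11.2% were at least 1.5 times higher and 11% at least 1.5 times lower. The class II ratio went below 1 at Leiden resolution 2 (0.983), without the filter on genes and mitochondrial share (0.741), with doublets kept (0.821) and with the low-depth unnamed clusters added (0.849). Apart from the last, these settings clustered and named the nuclei again. The class then held 1206, 1142 and 1082 nephrectomy nuclei and 1374, 1125 and 1067 sham nuclei. By cluster, class II stood at 27.2 CPM in nephrectomy and 11.1 CPM in sham nuclei of cluster 0, at 144 and 73.2 CPM in cluster 1, at 29.7 and 33.0 CPM in cluster 2 and at 23.8 and 32.8 CPM in cluster 4.

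Injured proximal tubule-like nuclei, a cluster with injury markers that held 29 nephrectomy and 2 sham nuclei, carried far more class II RNA than the proximal tubule-like class. In the nephrectomy library class II stood at 374.5 CPM (309 to 450.3) in them, against 33.9 CPM in that class. Cd74 had 67 UMIs in 14 of the 29 nuclei, at 222 CPM (172 to 282), against 13.6 CPM (11.7 to 15.7) in that class. H2-Eb1 had 16 UMIs, H2-Ab1 14, H2-Aa 11 and Ciita 5, in 4 to 9 nuclei each. UMIs of at least 3 of the 5 class II genes were found in 6 of the 29 nuclei, or 20.7% (7.99 to 39.7), against 13 of 1336 in that class, or 0.973% (0.519 to 1.66), both by exact Clopper-Pearson intervals. Class I was also higher there, at 537 CPM against 94.3 CPM, with 162 UMIs of which 1 nucleus held 47. Of the 38 leukocyte markers 13 were detected, with 1 UMI of Ptprc, 5 of Csf1r, 3 of Lyz2 and 3 of C1qa, while C1qb, Adgre1, Itgam and Cd79a were at 0. The 44 UMIs of the list came to 146 CPM, against 60.3 CPM in the proximal tubule-like class of the same library. In the nephrectomy library the share of free RNA, estimated from thick ascending limb markers, was 10.45% in the injured cluster and 16.28% in that class, and its part in the class II level was not tested. In the 26 nuclei without a UMI of Ptprc, Lyz2, C1qa or C1qb class II stood at 379 CPM (309 to 460), as high as in the whole cluster. The class II UMIs were unevenly spread, with 72 of the 113 in 5 nuclei. The 2 sham nuclei of this cluster held no class II UMI, where 3 UMIs would have been 151 CPM, so no comparison between the libraries was possible there.

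The remaining classes gave few class II UMIs. The distal class stood at 22.6 CPM in the nephrectomy and 42.4 CPM in the sham library, a ratio of 0.533 (0.388 to 0.730), with H2-Aa at 14 against 28 UMIs and Cd74 at 28 against 38. One sham nucleus held 21 of the 90 sham UMIs. Endothelial-like nuclei stood at 81.1 and 92.1 CPM, a ratio of 0.880 (0.681 to 1.14), with H2-Eb1 at 19 UMIs in each, a ratio of 0.644 (0.322 to 1.28). Thick ascending limb-like (ratio 0.995), intercalated-like (0.973), principal-like (0.840) and podocyte-like nuclei (1.63, from 15 against 4 UMIs) had intervals that included 1.

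Other genes of the same pathways were followed as lists. Of 13 genes for class I peptide supply and loading, none was at least 1.5 times higher and 3 were at least 1.5 times lower over the whole library, where 9.18% of all genes tested were higher and 10.7% lower, with a median log2 ratio of -0.23. These were the endoplasmic reticulum chaperone genes Calr (1473 against 2440 UMIs, ratio 0.451, 0.423 to 0.481), Pdia3 (1574 against 2426, ratio 0.485) and Canx (3630 against 4121, ratio 0.658), whose products also serve proteins other than class I. Calr and Pdia3 were lower also in proximal tubule-like (0.427 and 0.442) and fibroblast-like nuclei (0.407 and 0.382). Among 15 other class I heavy chain genes 12 had at least 20 UMIs, of which H2-Q2 and H2-Q4 were higher and Cd1d1 lower. H2-Q4 was higher in proximal tubule-like nuclei, where 11.2% of all genes tested were higher and 11% lower, with 86 against 23 UMIs, a ratio of 2.93 (1.83 to 4.87), and over the whole library (257 against 125, ratio 1.54). Of the interferon gamma signalling genes 10 of 11 had at least 20 UMIs and only Socs3, a feedback inhibitor, was at least 1.5 times higher over the whole library (43 against 13 UMIs, ratio 2.47, 1.31 to 5.01). In proximal tubule-like nuclei the interferon-induced transcription factor gene Irf1 had 75 against 29 UMIs, a ratio of 2.03 (1.31 to 3.23), and the class I coactivator gene Nlrc5 had 31 against 12, a ratio of 2.03 (1.01 to 4.33).

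Of 12 measured genes of class II processing and loading, 9 had at least 20 UMIs over the whole library, of which none was higher and 1 lower, beside 9.18% and 10.7% of all genes. This was March1, a ubiquitin ligase that removes class II from the surface, with 571 against 988 UMIs, a ratio of 0.432 (0.389 to 0.479), and 436 against 806 UMIs in proximal tubule-like nuclei. The 7 genes of the class II transcription complex all lay within 1.5-fold over the whole library, with a median log2 ratio of 0.10. Of the costimulation and checkpoint genes 5 of 8 had at least 20 UMIs, and only Cd86 passed 1.5-fold. Cd86, which codes for a costimulatory ligand, had 118 against 52 UMIs over the whole library, a ratio of 1.70 (1.21 to 2.40). In phagocyte-like nuclei Cd86 had 8 against 18 UMIs, a ratio of 0.508 (0.191 to 1.23).

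Genes with a like pattern were ranked over 22 points (13 classes in 1 or both libraries) among 13809 genes, as a description, since the points share libraries and depth. The class I sum was followed most closely by Tapbp, the gene of tapasin, which bridges the transporter and the class I heavy chain (Pearson's r of 0.90 on log2 CPM), then by Sipa1, Ddx60, Gnai2 and Rap1b. The class II sum was followed by Apoe (0.95), Apobec1, Trf, Camk1d and C1qa.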

How the data were processed

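Kidney nuclei of 1 nephrectomy and 1 sham library were profiled. The deposited files hold UMI counts per gene and barcode, made by the authors with Cell Ranger on mm10 (version 7.1.0 per the submitters' processing notes, 7.0.1 per the file headers). Whether intronic reads were counted is not given in the sources used here. Positions came from GENCODE M21, in which 32235 of 32285 identifiers were found.

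The filter kept nuclei in which 200 genes or more were detected and mitochondrial UMIs made up no more than 10%. Scrublet's own threshold called 1 nephrectomy and 0 sham nuclei, so the 3% with the highest scores were removed (90 and 84). Nuclei were clustered together on 2000 variable genes by Pearson residuals, 30 principal components and Leiden resolution 1, and a cluster whose 2 best types lay within 1 log2 was clustered again. These choices were made after seeing the data. Clusters were named from marker lists, which needed at least 3 markers. Class names mean nuclei like that type, and a difference from the study may come from rebuilt names.

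UMIs were summed per class and library. Ratios have exact conditional binomial intervals, sums exact Poisson and shares exact Clopper-Pearson intervals at 95%. Genes with at least 20 UMIs over both libraries entered counts of genes 1.5-fold higher or lower. A count of 0 allows up to 3 counts. Thinning to 1000 UMIs left out 275 nephrectomy and 319 sham nuclei. The 10 genes could be named in every class, and of the pathway lists up to 3 highest and 3 lowest per class past 1.5-fold; H2-Q4 in the whole library, Cd1d1 and Canx were named after their values were seen. The genes and lists were chosen with earlier results of these data known. Molecules are not animals, so intervals cover counting error only. On simulated data for the whole library, 97.0% of genes set 2-fold either way passed 1.5-fold, as did 3.47% of unchanged ones, and for fibroblast-like nuclei 89.1% and 15.7%. The simulated counts were Poisson draws from pooled shares, without spread between nuclei or animals. These rates therefore hold for counting error alone and do not say how many observed calls are real. Alternatives included filters, doublets, weights, TMM factors and subtraction of free RNA, estimated from proximal tubule markers (thick ascending limb markers in proximal tubule nuclei). The estimate took all such marker RNA in a class as free, so it is an upper value. Software was Python 3.11.15, scanpy 1.11.5, leidenalg 0.10.2, scipy 1.17.1, R 4.3.3 and edgeR 4.0.16.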

Additional observations from a re-analysis of the deposited data

How the results depend on the processing

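No paired analysis was possible because each group had 1 library. With 1 library each, no replicate was left out. Of 162 alternative values of the 12 class sums, 115 stayed within the counting interval and 47 lay outside it, 16 of them on the other side of 1. Values below are nephrectomy over sham ratios, and the cause of each shift was not tested.

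In proximal tubule-like nuclei class I stayed above 1 under every alternative run. It was 1.07 with no filter on nuclei, 1.115 with doublets kept, 1.15 at Leiden resolution 2, 1.04 with the low-depth unnamed clusters, 1.47 over shared clusters with equal weight, 1.62 after free RNA was subtracted, 1.73 with equal weight per nucleus and 1.49 as the median of the genes, with or without a minimum of UMIs. Class II there turned with no filter (0.741), doublets kept (0.821), resolution 2 (0.983) and the low-depth clusters (0.849). It was 1.08 at resolution 0.5, 1.495 over shared clusters, 1.51 thinned, 1.88 after free RNA was subtracted and 1.98 with equal weight per nucleus. H2-D1 there was 1.22 with equal weight per nucleus, 1.21 over shared clusters and 1.04 after free RNA was subtracted, on the other side of 1. Tap1 turned when thinned (0.811) and over shared clusters (0.738), and H2-Ab1 with no filter (0.972) and with the low-depth clusters (0.969).

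Over the whole library class I was 0.983 thinned and 1.16 as the median of the genes. Class II there was 1.003 under the stricter filter, 1.04 thinned and 1.13 without leukocyte-like nuclei. Endothelial-like class I was 1.02 with equal weight per nucleus and as the median of the genes, 1.05 over shared clusters, 0.958 thinned and 0.804 without its most abundant gene. Endothelial-like class II was 1.195 with equal weight per nucleus, 1.34 thinned and 0.561 after free RNA was subtracted. Thinned phagocyte-like nuclei gave 1.24 for class I, 0.992 for class II and 4.615 for H2-K1.

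In smooth muscle or mesangial-like nuclei class I was 1.12 with no filter, 0.907 with doublets kept, 2.255 thinned, 1.11 at resolution 2 and 1.18 without nuclei with a leukocyte UMI. Class II was 1.29 with doublets kept, 1.82 at resolution 2 and 1.29 without such nuclei. H2-K1 turned with doublets kept (0.993), B2m with no filter (0.971) and doublets kept (0.840), and H2-Ab1 without nuclei with a leukocyte UMI (0.704). The class was not found under the stricter filter or at resolution 0.5. Fibroblast-like class I was 1.06 at resolution 2. Fibroblast-like class II was 1.54 with equal weight per nucleus, 3.26 without its most abundant gene and 1.13 without nuclei with a leukocyte UMI. There H2-D1 turned at resolution 0.5 (0.991) and 2 (0.989), and Cd74 without nuclei with a leukocyte UMI (0.737). The low-depth clusters, the nuclei with a leukocyte UMI and all alternatives for these 2 classes and for single genes were chosen after seeing the data.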
